A study of Homo sapiens with 16 samples.

Results

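The SLC30 family of zinc and manganese transporters was followed in HAP1 cells, a near-haploid adherent human line derived from a chronic myeloid leukaemia. Members were the entries of the count table named SLC30A1, SLC30A3, SLC30A4, SLC30A5, SLC30A6, SLC30A7, SLC30A9 and SLC30A10, 8 of 33121 entries. Of these, 7 were among the 15569 genes with enough reads to be tested, and SLC30A10 itself was not. Poly-A RNA was sequenced in 4 groups of 4 libraries. They were cells with a deletion of SLC30A10, control cells of that experiment labelled SLC30A10+/+, cells with a deletion of another gene that is not reported here (the second knockout), and matching controls (the second control set). One cell line identifier is given for both control sets, each deletion has its own, and all groups were grown in the same IMDM-based medium with serum, with no metal treatment in the labels. The labels name neither the exon that was deleted nor the number of clones, and they do not say whether the libraries came from separate cultures, so p-values measure the spread between these libraries only. Each experiment has its own control set, and the experiment cannot be told apart from what differs between the control sets.

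Transporters of the SLC30 family, also called ZnT proteins, move zinc out of the cytosol, either across the plasma membrane or into organelles. SLC30A10 stands apart because it exports manganese at the cell surface, and inherited loss of it causes manganese overload with parkinsonism. SLC30A1 is the main zinc exporter of the plasma membrane and is switched on by the zinc sensor MTF1, which binds short metal response elements in DNA. The comparison asked whether the RNA of the remaining members was higher or lower in cells without SLC30A10.

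Promoter sequence of 4 members is shown, of which SLC30A1, SLC30A4 and SLC30A6 carry a match to the core of a metal response element and SLC30A9 does not. SLC30A3, which is not shown, also carries 1 match, in a stretch of 38 bases outside annotated exons. The sequences are RefSeq's for GRCh38.p14, cover bases before the annotated start that lie outside annotated exons, and run 5′ to 3′ on the gene's strand. SLC30A1 is at chr1:211579162-211579411 (minus), SLC30A4 at chr15:45522808-45523005 (minus), SLC30A6 at chr2:32165614-32165840 (plus) and SLC30A9 at chr4:41990280-41990471 (plus). Capitals mark the match, which in SLC30A1 and SLC30A6 lies on the opposite strand and in SLC30A6 overlaps CACTCC, a short repeat of the zinc transcriptional regulatory element.
SLC30A1: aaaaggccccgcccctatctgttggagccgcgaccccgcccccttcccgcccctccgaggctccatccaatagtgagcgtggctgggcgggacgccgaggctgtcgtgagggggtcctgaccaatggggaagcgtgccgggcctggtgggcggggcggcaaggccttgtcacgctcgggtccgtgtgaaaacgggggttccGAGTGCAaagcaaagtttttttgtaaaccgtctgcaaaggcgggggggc
SLC30A4: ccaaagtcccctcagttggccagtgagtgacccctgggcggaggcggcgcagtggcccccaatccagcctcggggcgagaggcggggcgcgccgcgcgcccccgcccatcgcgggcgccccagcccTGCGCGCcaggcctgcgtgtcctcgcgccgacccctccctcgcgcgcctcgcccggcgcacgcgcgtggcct
SLC30A6: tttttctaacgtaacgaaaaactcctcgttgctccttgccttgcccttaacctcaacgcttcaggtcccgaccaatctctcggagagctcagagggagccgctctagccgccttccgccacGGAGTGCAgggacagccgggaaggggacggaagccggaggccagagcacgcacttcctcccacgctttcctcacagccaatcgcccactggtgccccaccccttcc
SLC30A9: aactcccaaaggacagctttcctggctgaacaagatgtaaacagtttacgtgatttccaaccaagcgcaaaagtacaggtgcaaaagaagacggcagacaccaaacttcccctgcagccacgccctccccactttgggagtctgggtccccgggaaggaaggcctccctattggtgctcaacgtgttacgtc
All 8 members had a RefSeq window running from 250 bases before to 50 bases after a start, 10 windows in all. The core, searched as TGCACNC or TGCGCNC on both strands, was in 5 of the 10 windows, and CACTCC was in 3. Of 35116 RefSeq windows of 300 bases, 29.6% held the core and 19.7% held CACTCC. A match is a description of letters, not a binding site.

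The 16 libraries held between 16058856 and 16648151 counts, so 3 counts correspond to 0.181 to 0.187 counts per 1000000 (CPM). VIM, ABL1 and BCR, the 3 genes listed for this line, had reads in every group, which by itself does not identify the line. Of the 6 blood markers, HBG1 and HBG2 were at 0 counts in all libraries, and the summed level of the list lay between 0 and 0.548 CPM. The 3 neuroblastoma markers, of which DBH was at 0, summed to between 0 and 0.497 CPM. VIM differed between groups. Together, VIM, ABL1 and BCR summed to between 395 and 406 CPM in the SLC30A10 knockout and between 638 and 700 CPM in its controls. In the second knockout they summed to between 541 and 691 CPM, and in the second control set to between 448 and 594 CPM. The SLC30A10+/+ controls and the second knockout were the higher groups, and the part of this shift in the results on the family was not tested. The 3 epithelial markers (EPCAM, CDH1, KRT8) summed to between 9.31 and 10.8 CPM in the SLC30A10 knockout, 7.61 and 9.99 CPM in its controls, 3.27 and 4.24 CPM in the second knockout and 6.14 and 8.38 CPM in the second control set. This sum hides opposite changes. In the SLC30A10 knockout 2 of the epithelial markers were tested, and 1 passed as higher and 1 as lower, where 41.4% of all tested genes passed. Their median log2 fold change was -0.91 and their median absolute log2 fold change 1.27. In these bulk libraries, fewer cells that make an RNA and less of it per cell cannot be told apart.

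SLC30A10 RNA was scarce in every group, with between 0 and 11 counts a library. The knockout libraries held 11, 5, 8 and 3 counts, and the SLC30A10+/+ controls held 8, 6, 8 and 9. The ranges overlapped, and the knockout libraries were more spread. Knockout libraries averaged 0.418 ± 0.216 CPM and controls 0.472 ± 0.0774 CPM (SD, n = 4 each), a difference within the spread between libraries (exact permutation test, two-sided, p = 0.686, where 0.0286 is the smallest possible). Summed over libraries, 27 counts stood against 31, a depth-adjusted ratio of 0.886 with a 95% exact interval of 0.509 to 1.53 that covers counting error only. A whole-gene count at this depth therefore gives no check of the knockout label. The second knockout held 5, 0, 1 and 3 counts, against 2, 7, 3 and 5 in its controls (exact permutation test, two-sided, p = 0.314). Between the control sets, 31 counts stood against 17, a ratio of 1.83 with an interval of 0.982 to 3.52 (exact permutation test, two-sided, p = 0.0571). In GRCh38, SLC30A10 lies on chr1:219685427-219958647, minus strand, in GENCODE v29.

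Per kilobase of summed exon length, the members spanned a wide range of levels in the SLC30A10+/+ controls. SLC30A9, a zinc exporter of mitochondria, was highest at 21.4 ± 0.553 CPM per kilobase (SD, n = 4). SLC30A6 and SLC30A5, which pair to carry zinc into the early secretory pathway, followed at 12.4 ± 0.909 and 12.2 ± 0.564 CPM per kilobase (SD, n = 4). The libraries of these 2 genes overlapped, and in the other 3 groups SLC30A5 had the higher mean, again with overlap. SLC30A3, known for loading zinc into synaptic vesicles of neurons, was at 7.55 ± 0.197 CPM per kilobase, and SLC30A7, a Golgi zinc transporter, at 4.15 ± 0.199 (SD, n = 4). SLC30A1 came next at 2.52 ± 0.351, then SLC30A4, which moves zinc into endosomes and the trans-Golgi network, at 0.686 ± 0.0577, and last SLC30A10 at 0.0817 ± 0.0134 CPM per kilobase (SD, n = 4). Other neighbours in this order did not overlap. The order depended on the length used. Divided by the longest coding transcript of each gene instead, SLC30A3 stood at 19.98 ± 0.522 CPM per kilobase (SD, n = 4), second after SLC30A9. Divided by the shortest coding transcript, SLC30A5 came first at 184 ± 8.54 CPM per kilobase, SLC30A6, SLC30A3 and SLC30A7 followed, and SLC30A9 was the fifth at 24.8 ± 0.642 (SD, n = 4).

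**Figure D1:**
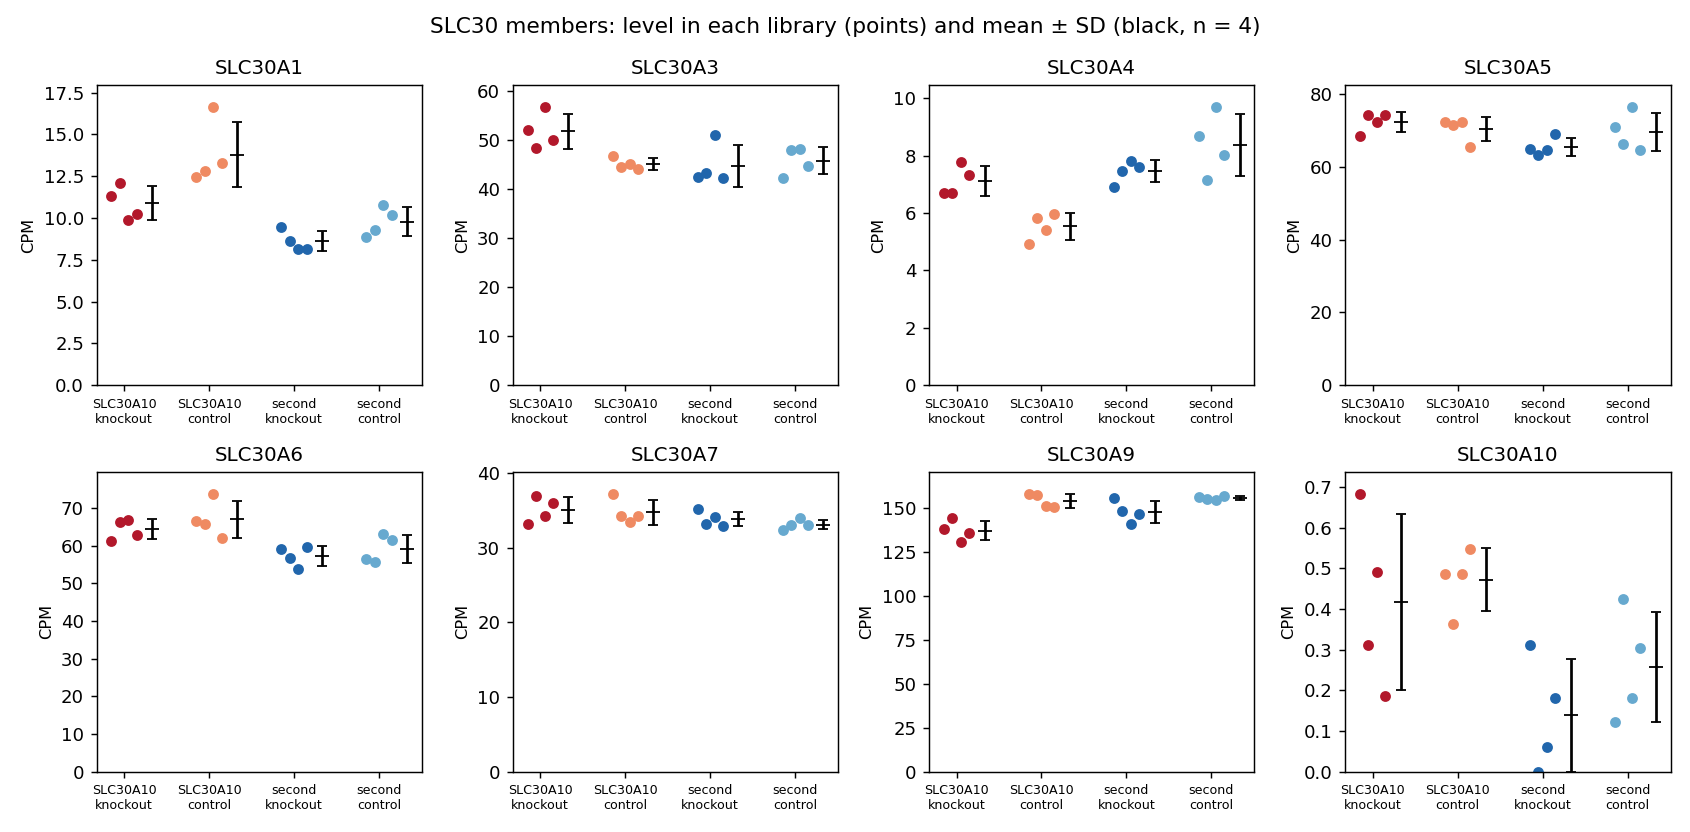
Level of each SLC30 member in CPM (vertical axis, from 0, a separate scale for each gene) in the 4 groups, with a point for each library and the mean ± SD of 4 libraries in black. SLC30A1 and SLC30A9 sit lower, and SLC30A3 and SLC30A4 higher, in all 4 SLC30A10 knockout libraries than in all 4 of their controls, and SLC30A10 stays under 0.7 CPM throughout.

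In the SLC30A10 knockout, SLC30A3 and SLC30A4 RNA was higher and SLC30A1 and SLC30A9 RNA was lower than in its controls. SLC30A5, SLC30A6 and SLC30A7, the transporters of the early secretory pathway and Golgi, did not pass the test. Of the 7 tested members, 4 passed (edgeR's quasi-likelihood test, Benjamini-Hochberg adjusted p under 0.05), 2 in each direction, where 41.4% of all tested genes passed, 21.2% higher and 20.2% lower. The libraries of knockout and control did not overlap for these 4 members, as for 38.3% of all tested genes. The members' share is therefore near the background of this comparison. Their median log2 fold change was 0.01 and their median absolute log2 fold change 0.17, beside -0.00 and 0.16 over all tested genes.

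SLC30A1 had 11.3, 12.1, 9.86 and 10.3 CPM in the SLC30A10 knockout and 12.5, 12.8, 16.6 and 13.3 CPM in its controls. Every knockout library was below every control, by a narrow margin, and control replicate 3 was the highest. The log2 fold change was -0.34 ± 0.096 (SE, 95% interval -0.54 to -0.15, edgeR adjusted p = 0.00535), so SLC30A1 fell by 21.1%. Without control replicate 3 the log2 fold change was -0.24 (adjusted p = 0.0357). In the second experiment SLC30A1 had 9.47, 8.64, 8.17 and 8.17 CPM in the knockout and 8.86, 9.27, 10.8 and 10.2 CPM in the controls, and the groups overlapped. The SLC30A10 knockout libraries, although lowest in their own experiment, reached 10.9 ± 1.02 CPM (SD, n = 4) against 9.78 ± 0.870 CPM (SD, n = 4) in the second control set. SLC30A1 lies on chr1:211571568-211578742, minus strand (GRCh38, GENCODE v29).

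SLC30A4 showed the opposite direction at a low level. It had 6.71, 6.71, 7.78 and 7.34 CPM in the SLC30A10 knockout and 4.93, 5.82, 5.42 and 5.97 CPM in its controls. All knockout libraries lay above all controls, with a log2 fold change of 0.37 ± 0.11 (SE, 95% interval 0.14 to 0.59, edgeR adjusted p = 0.00825), 28.8% higher. The second knockout held 6.91, 7.48, 7.80 and 7.62 CPM and its controls held 8.68, 7.15, 9.69 and 8.01 CPM, with overlap. The SLC30A10+/+ controls were thus the group with the lowest SLC30A4, and the knockout libraries lay within the range of the other 2 groups apart from the pair at 6.71 CPM. SLC30A4 lies on chr15:45479611-45522807, minus strand, and 2.66% of its exon length is shared with the antisense pseudogene HMGN2P46. Use of strand in counting is not given in the sources used here, so reads of overlapping antisense genes cannot be told apart.

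SLC30A3 had 52.0, 48.4, 56.7 and 50.02 CPM in the SLC30A10 knockout and 46.8, 44.5, 45.1 and 44.2 CPM in its controls. The knockout libraries were all above the controls, the nearest pair being 48.4 and 46.8 CPM. The log2 fold change was 0.20 ± 0.062 (SE, 95% interval 0.07 to 0.33, edgeR adjusted p = 0.0117), 14.7% higher. This call was lost without knockout replicate 3, at a log2 fold change of 0.15 and an adjusted p of 0.0724. The second knockout had 42.4, 43.2, 51.1 and 42.3 CPM and its controls 42.4, 48.0, 48.1 and 44.7 CPM, with overlap. SLC30A3 lies on chr2:27253684-27275817, minus strand, and shares 42 exonic bases with DNAJC5G on the other strand.

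SLC30A9, the member with the most reads, had 138, 144, 131 and 136 CPM in the SLC30A10 knockout and 158, 157, 151 and 151 CPM in its controls. The knockout libraries were all lower, although the difference was small, and the fold was 0.890 (log2 fold change -0.17 ± 0.039, SE, 95% interval -0.25 to -0.09, edgeR adjusted p = 0.00111). In the second experiment it had 156, 149, 141 and 147 CPM in the knockout and 156, 156, 155 and 157 CPM in the controls, and the groups overlapped. The second control set was tight, at 156 ± 0.913 CPM (SD, n = 4). SLC30A9 lies on chr4:41990472-42090457, plus strand. Over the 16 libraries, the genes whose log2 CPM followed SLC30A9 most closely among 11697 genes averaging 5 CPM or more were SNX6 (Pearson r = 0.935), EID1 (r = 0.931) and SMC3 (r = 0.927), a description of libraries that share groups and scaling.

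Against the SLC30A10+/+ controls, the members of the early secretory pathway and Golgi had narrow intervals around no difference. SLC30A5 was at 72.4 ± 2.74 CPM in the SLC30A10 knockout and 70.4 ± 3.26 CPM in its controls (SD, n = 4), and the 95% interval of the fold was 0.956 to 1.11 (edgeR adjusted p = 0.564). SLC30A6 was at 64.4 ± 2.65 and 67.05 ± 4.92 CPM (SD, n = 4), with an interval of 0.888 to 1.04 (adjusted p = 0.411). SLC30A7 was at 35.1 ± 1.71 and 34.8 ± 1.67 CPM (SD, n = 4), with an interval of 0.935 to 1.09 (adjusted p = 0.871). For all 3 genes the libraries overlapped, and no interval reached below 0.888 or above 1.11. The ratio of SLC30A5 to SLC30A6 CPM, the partners of a heterodimer, was 1.13 ± 0.041 in the knockout and 1.05 ± 0.0514 in the controls (SD, n = 4), with overlapping ranges. SLC30A5 (chr5:69093646-69131069, plus strand) shares 9.20% of its exon length with the antisense gene AC010273.1. SLC30A6 (chr2:32165841-32224379) and SLC30A7 (chr1:100896076-100981753), both on the plus strand, share no exonic base with another gene.

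Summed over the 8 members, the SLC30A10 knockout held 379 ± 7.48 CPM and its controls 392 ± 10.6 CPM (SD, n = 4), with ranges of 372 to 390 and 376 to 399 CPM that overlapped. The second knockout held 366 ± 6.29 CPM and its controls 382 ± 10.1 CPM (SD, n = 4), with ranges of 361 to 374 and 375 to 397 CPM that did not overlap, by a narrow margin. Differences in the sum were not tested. The sum is weighted towards SLC30A9, SLC30A5 and SLC30A6, which have the most reads.

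In the second knockout no member passed the test: 0 of 7, where 13.7% of all tested genes did, 6.67% higher and 7.03% lower. No member reached an unadjusted p under 0.05, DESeq2 also called 0, and all 7 members had overlapping groups, against 16.3% of tested genes without overlap. SLC30A1 had the most negative value, at a log2 fold change of -0.18 (edgeR adjusted p = 0.275), and SLC30A4 was at -0.17 (adjusted p = 0.305). The other 5 lay between -0.09 and 0.03.

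A test of whether a member's difference from its own controls itself differed between the knockouts called 2 of 7 members, SLC30A3 and SLC30A4. For both, the change from the controls was more positive in the SLC30A10 knockout than in the second knockout. Over all tested genes 31.3% passed, 16.7% in that direction and 14.6% in the other. SLC30A4 differed by 0.53 ± 0.15 on the log2 scale (SE, edgeR adjusted p = 0.00662). Its level was not higher in the SLC30A10 knockout than in the second knockout, at 0.884 and 0.923 CPM per kilobase of summed exon length. The SLC30A10+/+ controls were at 0.686 and the second control set at 1.04 CPM per kilobase, so this difference includes the gap between the control sets. SLC30A3 differed by 0.23 ± 0.088 (SE, edgeR adjusted p = 0.0455), a value at the threshold that was lost in 12 of 16 fits that each left out a library, with an adjusted p of up to 0.131. SLC30A1 and SLC30A9, although past the threshold in the SLC30A10 knockout alone, did not differ detectably between the knockouts (log2 difference -0.16, adjusted p = 0.429, and -0.09, adjusted p = 0.206).

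**Figure D2:**
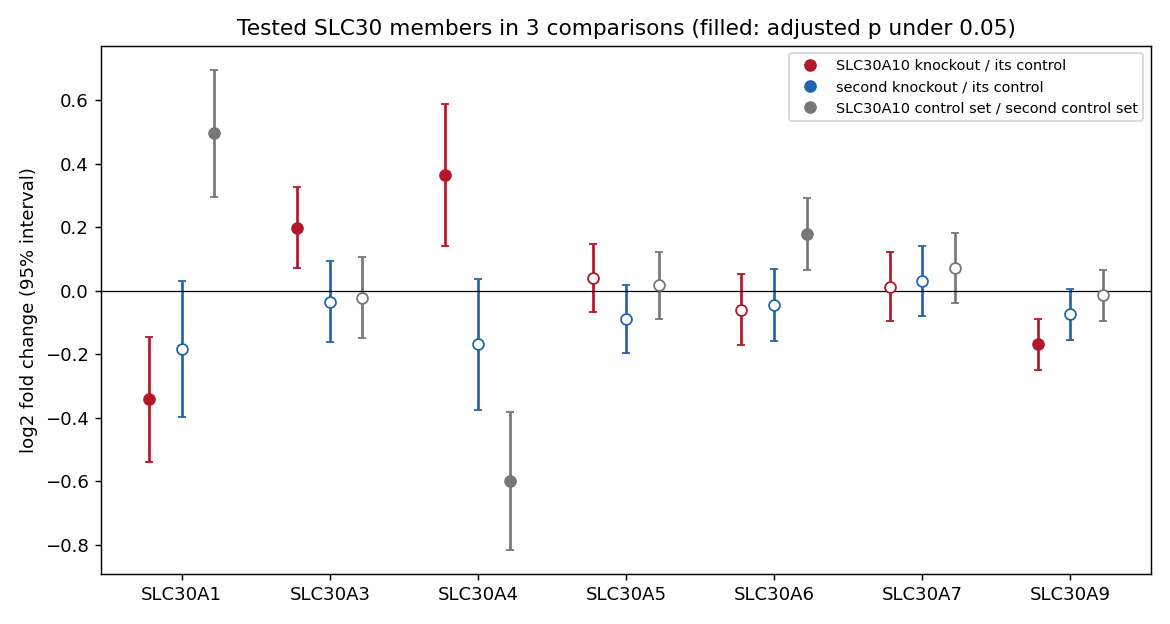
Log2 fold change (vertical axis) with its 95% interval for the 7 tested members in the SLC30A10 knockout against its controls, the second knockout against its controls, and the control sets against each other; filled points have an adjusted p under 0.05. Between the control sets SLC30A1 lies at 0.50 and SLC30A4 at -0.60, and SLC30A3 and SLC30A9 lie near 0.

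The control sets were compared with each other as a background between the experiments. SLC30A1 was higher in the SLC30A10+/+ set than in the second control set (log2 fold change 0.50 ± 0.097, SE, edgeR adjusted p = 0.000244) and SLC30A4 was lower (-0.60 ± 0.11, SE, adjusted p = 7.95e-05). SLC30A6 was higher by 0.18 ± 0.055 (SE, adjusted p = 0.0111), a call lost without SLC30A10+/+ replicate 3 (0.14, adjusted p = 0.0503). In all, 3 of 7 members passed, 2 higher and 1 lower, where 39.3% of all tested genes did (18.5% higher and 20.8% lower). SLC30A1 and SLC30A4 did not overlap between the sets, as for 36.3% of tested genes. This comparison shares the SLC30A10+/+ libraries with the knockout comparison.

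Measured against both control sets pooled, SLC30A1 and SLC30A4 no longer passed (log2 fold change -0.11, edgeR adjusted p = 0.546, and 0.04, adjusted p = 0.880). Against the second control set alone, both changed sign, to 0.15 for SLC30A1 (adjusted p = 0.222) and -0.23 for SLC30A4 (adjusted p = 0.0650). SLC30A9 kept its value in both settings, at -0.18 (adjusted p = 0.000711) with the sets pooled and -0.18 (adjusted p = 0.000450) with the second set. SLC30A3 was at 0.19 (adjusted p = 0.0155) with the sets pooled and 0.18 (adjusted p = 0.0220) with the second set. SLC30A5, SLC30A6 and SLC30A7 did not pass with the second set either, at 0.06, 0.12 and 0.08 (adjusted p = 0.385, 0.0793 and 0.212). Of the 4 members that passed, SLC30A3 and SLC30A9 therefore passed against either control set, and SLC30A1 and SLC30A4 against the SLC30A10+/+ set only.

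Zinc transporters outside the 8 members had few reads. SLC30A2, which loads zinc into secretory vesicles, had 3, 2, 0 and 3 counts in the SLC30A10 knockout and 0 in all its controls. An exact permutation test (two-sided) gave p = 0.143, the smallest value these counts allow, so it could not decide whether SLC30A2 differed. Summed over libraries, 8 counts stood against 0, a depth-adjusted ratio with a 95% exact interval starting at 1.74 that covers counting error only. The second knockout held 0, 0, 1 and 1 counts of SLC30A2, and its controls held 0. SLC30A8, the zinc transporter of insulin granules, had at most 2 counts in a library. TMEM163, a zinc efflux protein outside the SLC30 naming, had 0.435, 0.310, 0.796 and 0.373 CPM in the SLC30A10 knockout and 0.913, 1.09, 1.34 and 1.28 CPM in its controls, with no overlap. It fell by 1.26 on the log2 scale (± 0.29, SE, edgeR adjusted p = 0.000994). TMEM163 also passed with the control sets pooled (-1.22, adjusted p = 0.000636) and with the second set alone (-1.19, adjusted p = 0.00162). In the second knockout TMEM163 rose instead, to 3.68 ± 0.475 CPM from 1.11 ± 0.242 CPM (SD, n = 4; log2 fold change 1.73 ± 0.19, SE, adjusted p = 1.08e-07), and the control sets did not differ detectably (0.06, adjusted p = 0.861).

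The ZIP family (SLC39 genes) works in the opposite direction to SLC30 and brings zinc, and for some members manganese, into the cytosol. Of 14 ZIP genes 10 were tested, 2 passed as higher in the SLC30A10 knockout and none as lower, with a median log2 fold change of -0.01. Over all tested genes 41.4% passed, 21.2% higher and 20.2% lower, so the ZIP count does not exceed the background. SLC39A14, which imports manganese and zinc, was at 303, 302, 311 and 320 CPM in the knockout and 186, 201, 226 and 182 CPM in its controls (log2 fold change 0.64 ± 0.078, SE, edgeR adjusted p = 2.06e-07). SLC39A14 was also higher in the SLC30A10+/+ set than in the second control set, by 0.46 ± 0.079 (SE, adjusted p = 5.57e-05). In the SLC30A10 knockout it was at 0.85 against the pooled control sets (adjusted p = 1.07e-05). Against the second control set it was at 1.10 (adjusted p = 1.16e-11). SLC39A6 was higher in the SLC30A10 knockout than in its own controls by 0.19 ± 0.042 (SE, adjusted p = 0.000517). It also passed with the control sets pooled (0.22, adjusted p = 0.000238) and with the second set alone (0.24, adjusted p = 3.50e-05). Against the knockout's own controls SLC39A4 was at 0.18 (adjusted p = 0.0967), and past the threshold without knockout replicate 4 (0.23, adjusted p = 0.0432). SLC39A7, a zinc channel of the endoplasmic reticulum, was listed at 0 counts in all libraries. With the annotation of the counting not given, absence of this RNA and loss of its reads in counting cannot be told apart. In the second knockout 1 of the 10 passed, beside 13.7% of all tested genes: SLC39A6, lower at -0.13 (adjusted p = 0.0435), a call lost under median-of-ratios scaling (adjusted p = 0.0522) and in 6 of 8 fits that left out a library. SLC39A14 and SLC39A4 were at 0.14 and -0.15 there (adjusted p = 0.268 and 0.276).

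Metallothioneins buffer cytosolic zinc, and like SLC30A1 they are targets of MTF1. Of 12 genes on this list, MTF1 included, 6 were tested, and 3 passed as lower in the SLC30A10 knockout and none as higher, with a median log2 fold change of -0.32, where 41.4% of all tested genes passed and 20.2% passed as lower. MT1E had 76.4, 72.4, 73.2 and 78.0 CPM in the knockout and 113, 113, 145 and 102 CPM in its controls (log2 fold change -0.66 ± 0.074, SE, edgeR adjusted p = 5.24e-08). MT2A fell by 0.37 and MT1X by 0.45 on the log2 scale (adjusted p = 0.000426 and 0.000581), and MTF1 itself was at -0.11 (adjusted p = 0.134). Control replicate 3 was the highest control library for MT1E, MT2A and MT1X, as it was for SLC30A1. Without it MT1E, MT2A and MT1X were at -0.55, -0.26 and -0.34 in the SLC30A10 knockout and still passed (adjusted p = 1.50e-08, 0.00227 and 0.00392). Between the control sets 4 of the 6 passed, all higher in the SLC30A10+/+ set, where 39.3% of all tested genes passed and 18.5% passed as higher. Against both control sets pooled, MT2A and MT1X no longer passed (-0.19, adjusted p = 0.206, and -0.29, adjusted p = 0.0688), and against the second set alone MT1E did not either (-0.17, adjusted p = 0.0663). In the second knockout 1 of 6 passed, beside 13.7% of all tested genes: MT1E at -0.30 (adjusted p = 0.00774), and MT2A and MT1M were at -0.17 and -0.13 (adjusted p = 0.181 and 0.473).

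Of 9 other manganese transporters and their partners, all tested, 3 passed as lower in the SLC30A10 knockout and none as higher, with a median log2 fold change of 0.01, where 41.4% of all tested genes passed and 20.2% passed as lower. TFRC, the transferrin receptor, was at 268 ± 11.5 CPM in the knockout and 393 ± 40.5 CPM in its controls (SD, n = 4; log2 fold change -0.55 ± 0.083, SE, edgeR adjusted p = 5.02e-06). Against the second control set TFRC was higher instead, by 0.28 (adjusted p = 0.00743). SLC40A1, the iron exporter ferroportin, fell by 0.44 on the log2 scale (adjusted p = 0.00263). It also passed with the control sets pooled (-0.37, adjusted p = 0.00924) and with the second set alone (-0.29, adjusted p = 0.0472). TMEM165, a Golgi protein of manganese and calcium transport, was at -0.13 (adjusted p = 0.0180), a call lost without knockout replicate 2 or 3 (adjusted p = 0.0619 and 0.0526) and with the control sets pooled (adjusted p = 0.300). None of the 9 passed in the second knockout, where TMEM165 was at -0.12 (adjusted p = 0.0839) and ATP2C1, a Golgi manganese and calcium pump, at -0.05 (adjusted p = 0.450), and 2 of the 9 had an unadjusted p under 0.05. ALPL, a zinc-dependent alkaline phosphatase served by SLC30A5, SLC30A6 and SLC30A7, fell by 0.23 on the log2 scale in the SLC30A10 knockout (adjusted p = 0.000117), and was at -0.12 against the pooled control sets (adjusted p = 0.110). It was the 1 tested gene of a list of 6 such enzymes.

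**Figure D3:**
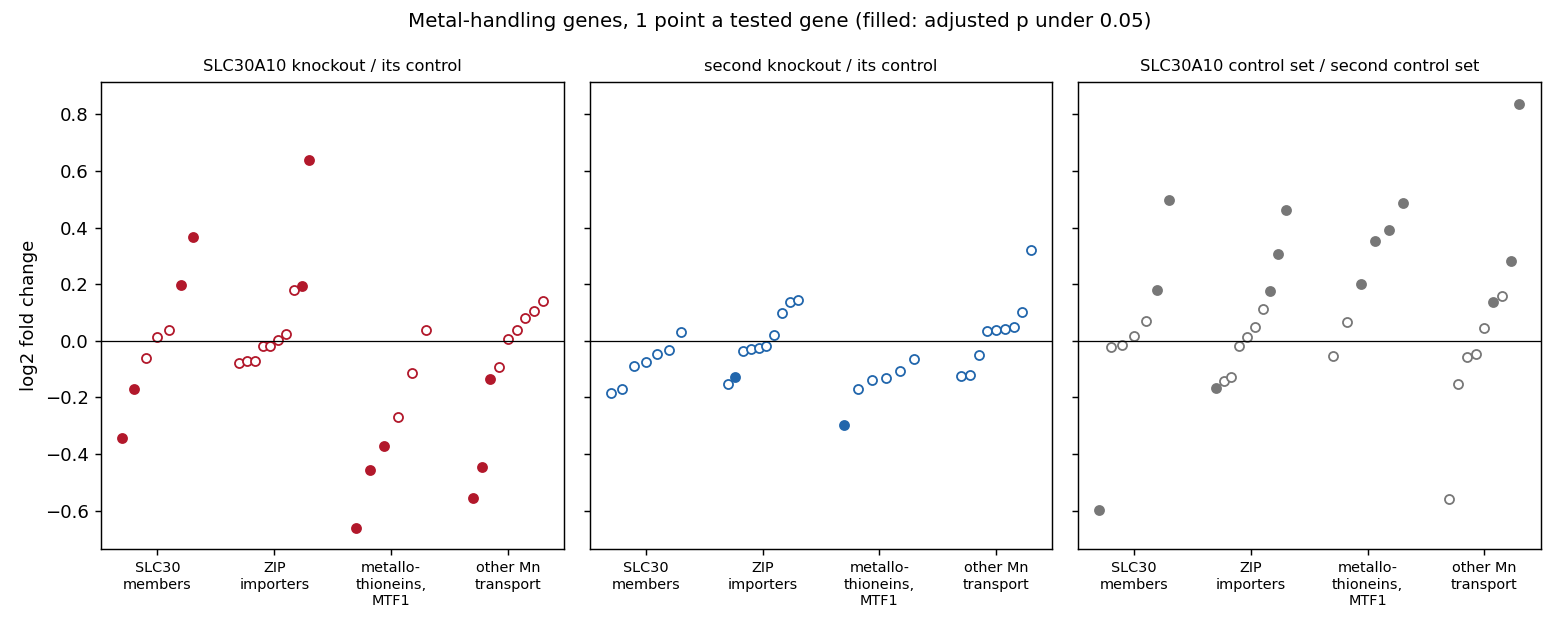
Log2 fold change (vertical axis) of each tested gene of 4 lists in 3 comparisons, with 1 point a gene and filled points where the adjusted p is under 0.05. SLC30 members spread to both sides of 0 in the SLC30A10 knockout, the called metallothioneins lie below 0 there and above 0 between the control sets, and TFRC is the highest point of the right panel.

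Neighbours on the chromosome were read for each member, as the 10 tested genes on either side. Around the deleted gene SLC30A10, 6 of 20 neighbours passed as lower and 1 as higher in its knockout, with a median log2 fold change of -0.06. Over all tested genes 21.2% passed as higher and 20.2% as lower, 41.4% in all, so the 7 called neighbours of 20 do not exceed the background. The nearest genes on either side, LYPLAL1 and EPRS, fell by 0.45 and 0.40 on the log2 scale (edgeR adjusted p = 7.79e-06 and 7.43e-06). In the second knockout these genes were at 0.15 and 0.17 (adjusted p = 0.144 and 0.0628), and between the control sets at 0.19 and 0.24 (adjusted p = 0.0289 and 0.00232). Around SLC30A4, 4 neighbours passed as higher and 7 as lower, with a median of -0.18, and its nearest neighbour BLOC1S6 was at 0.03 (adjusted p = 0.645). Around SLC30A1, 3 passed in each direction, and its nearest neighbours NEK2 and LINC00467 were at 0.26 (adjusted p = 0.00421) and -0.23 (adjusted p = 0.0914). Around SLC30A9, 4 passed as higher and 6 as lower, and around SLC30A3, 4 and 3, with medians of -0.02 at both. At none of these 4 members did most of the 20 neighbours pass in the member's own direction. The nearest genes were CAD (-0.06, adjusted p = 0.417) and DNAJC5G (-0.02, adjusted p = 0.944) for SLC30A3, C15orf48 (-0.45, adjusted p = 0.389) on the other side of SLC30A4, and BEND4 (0.15, adjusted p = 0.00181) and DCAF4L1 (-0.14, adjusted p = 0.568) for SLC30A9. Beside the members that did not pass, PIK3R1 next to SLC30A5 fell by 0.51 on the log2 scale (adjusted p = 2.13e-06), EXTL2 next to SLC30A7 fell by 0.31 (adjusted p = 0.000142) and SPAST next to SLC30A6 was higher by 0.16 (adjusted p = 0.0218). Their nearest genes on the other side, CCNB1, DPH5 and NLRC4, did not pass.

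**Figure D4:**
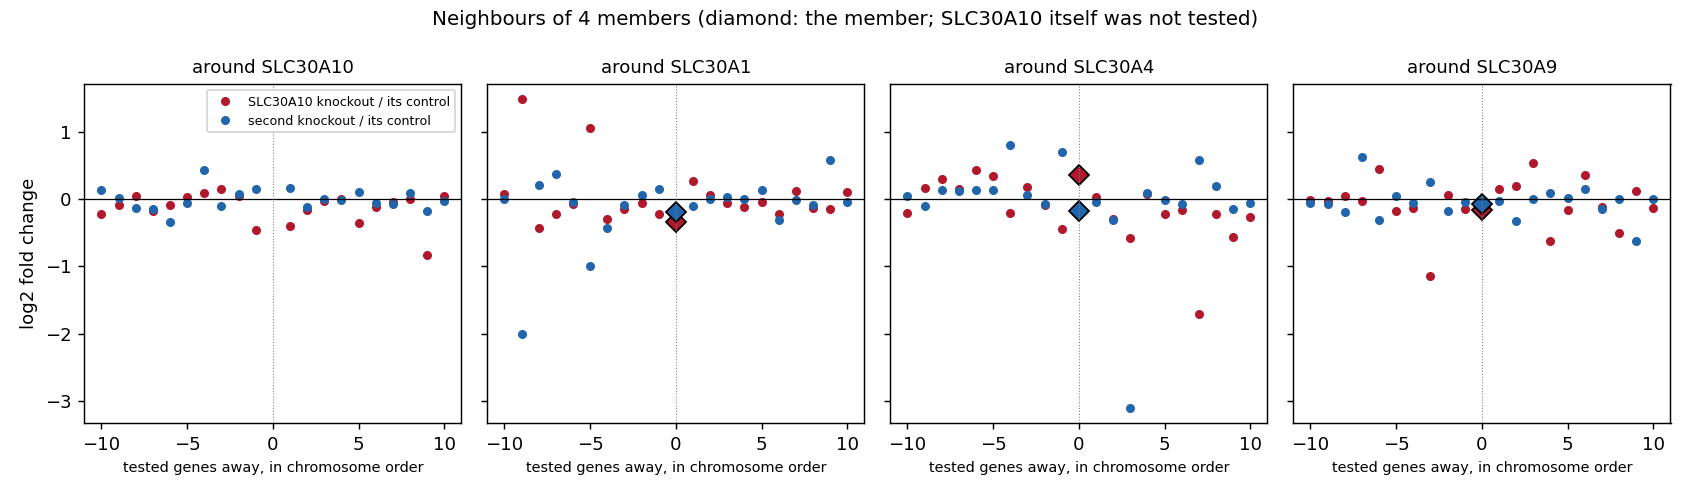
Log2 fold change (vertical axis) of the 10 tested genes on either side of SLC30A10, SLC30A1, SLC30A4 and SLC30A9, in chromosome order (horizontal axis, genes away), in the SLC30A10 knockout and the second knockout against their controls; diamonds mark the member. In the SLC30A10 knockout the genes next to SLC30A10 lie at -0.45 and -0.40, and SLC30A4 lies above a neighbourhood with a median of -0.18.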

How the data were processed

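Poly-A RNA of 16 HAP1 libraries was read as paired ends on a DNA nanoball platform, per the labels. HISAT2, featureCounts and DESeq2 and the build hg38/GRCh38 are named in the submitters' processing notes; versions, annotation and use of strand are not given in the sources used here. The authors deposited whole-number counts per gene symbol (33121 entries) and a table of normalized signal. In the deposited signal table each column equals its count column times a constant, within 5.13e-06; it served only as an alternative scaling.

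Groups came from titles and genotypes. Counts were scaled by TMM and tested with edgeR 4.0.16 (quasi-likelihood test, R 4.3.3, filterByExpr with a minimum count of 10 and total of 15), on all 16 libraries with a mean per group, and adjusted over 15569 genes by Benjamini-Hochberg at 0.05. CPM values use TMM. SLC30A10, below the filter, was compared by an exact permutation test. In data simulated for the SLC30A10 comparison (15410 genes), 38% of genes changed 1.15-fold, 60% of those changed 1.3-fold and 96% of those changed 2-fold were called. Each fold was given to 50 genes and the rest were left unchanged, whereas 41.4% of all tested genes passed in the data. The cutoff on the unadjusted p was therefore stricter in the simulation, and these shares are not the sensitivity in the data. Pairs of replicates differed beyond counting noise (chi-square per degree of freedom 1.64 to 6.83), so none was merged.

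The members and lists were chosen with earlier results of these data known. Named were all members, up to 3 genes a list with the smallest adjusted p per knockout, the 3 genes most like the member with the smallest adjusted p, and the nearest neighbours; 1 such list gene is not reported. Gene positions and exon lengths are GENCODE v29's, and gene order RefSeq's (GRCh38.p14), which placed 91.0% of tested genes. Alternatives changed the scaling, filter, threshold, tool (DESeq2 1.42.0), control set, libraries and replicate block.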

Additional observations from a re-analysis of the deposited data

Results flagged for a closer look

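Within groups, 2 of 40 sets of 4 library values had an end value whose gap to the nearest other exceeded 0.83 of the range, where chance gives about 2. SLC30A3 in the second knockout was the first: replicate 3 stood at 51.1 CPM, above the others at 42.3 to 43.2 CPM, a gap of 0.896 of the range. SLC30A5 in the SLC30A10+/+ controls was the other: replicate 4 stood at 65.5 CPM, below the others at 71.6 to 72.3 CPM, a gap of 0.901 of the range.

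The difference between the knockouts' effects was tested for each member. SLC30A4 differed by 0.53 on the log2 scale (edgeR adjusted p = 0.00662) and passed in all 23 alternatives. None of these alternatives changed the control sets, so they do not show whether the difference depends on them. In the SLC30A10 knockout alone, SLC30A4 was at 0.04 against the pooled sets (adjusted p = 0.880). Against the second control set it was at -0.23 (adjusted p = 0.0650). SLC30A3 differed by 0.23 (adjusted p = 0.0455), but lost the threshold in 17 of 23 alternatives, with an adjusted p of up to 0.131. Neither second-knockout effect passed the test by itself.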

How the results depend on the processing

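Of 525 values of the members under alternatives, 498 kept their side of the threshold, 21 lost it, 3 gained it and 3 reversed. A value counted as reversed only if it passed in the main or the alternative fit. The 498 therefore include changes of sign where neither fit passed. The count of 4 members called in the SLC30A10 knockout became 2 with the control sets pooled and 2 with them exchanged, and lay between 3 and 4 when a library was left out. In the second knockout the count of 0 became 1 with the sets pooled and 3 with them exchanged, and stayed at 0 to 0 with a library left out. For the difference of the effects, 2 became 1 under median-of-ratios scaling, library totals alone, the deposited size factors (chosen after seeing the data), an adjusted p under 0.01, a filter at a mean count of 50 and DESeq2, and lay between 1 and 2 with a library left out. Between the control sets the count of 3 lay between 2 and 3.

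With the control sets exchanged, some log2 fold changes that passed in the main or the exchanged fit reversed. In the SLC30A10 knockout these became 0.15 (SLC30A1), -0.23 (SLC30A4), 0.020 (MT2A), 0.28 (TFRC) and 0.0011 (TMEM165). In the second knockout they became 0.43 (SLC30A4), -0.32 (SLC39A14), -0.74 (TFRC) and -0.19 (ALPL). Of the members, SLC30A6 in the SLC30A10 knockout (-0.06 to 0.12) and SLC30A7 in the second knockout (0.03 to -0.04) changed sign without passing in either fit. The cause was not tested. The log2 ratio of SLC30A10 lay between -0.52 and 0.07 with a library left out and was 0.20 with the sets pooled, from too few counts to give a direction.

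Same-numbered libraries showed no sign of pairing in the SLC30A10 comparison and weak, uneven correlation elsewhere. Their mean correlation was -0.0479, 0.104 and 0.0593 in the SLC30A10, second and control-set comparisons. In that order, 0, 2 and 3 of 4 pairs were over 0.1, and 0, 1 and 2 libraries were closest to their own number. With the replicate block 4 members were called in the SLC30A10 knockout (SLC30A1 at -0.34), 0 in the second knockout, 2 for the difference and 3 between the control sets, and none of 28 member values changed its call. Lengths of RefSeq transcripts were not used; GENCODE lengths, chosen after seeing the data, stood in.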
